A study of Mus musculus with 4 samples.

Results

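The aminoacyl tRNA synthetases are the enzymes that join each amino acid to its tRNA. They were taken as 36 listed genes, 20 for cytosolic enzymes and 16 for mitochondrial enzymes, whose symbols end in 2. A probe belonged to a member when the gene name in the scanner files was the listed symbol or its newer form ending in 1. All 36 members were found, on 45 of 39418 probes, and they are 36 of the 31703 genes or other names on the array. The RNA came from erythrocyte/megakaryocyte progenitors of mice of C57BL/6 background, in 4 groups of 1 array each: Ezh2-null and wild-type cells of E14.5 fetal liver, and Ezh2-null and wild-type cells of adult bone marrow. Ezh2 encodes the histone methyltransferase of Polycomb repressive complex 2. The labels do not give the allele that was deleted, a Cre driver, the sex or number of animals, or how the progenitors were isolated. Since each group is 1 array, differences have no replicate check, and a gene is called here where its signals were at least 2-fold apart.

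Each synthetase serves 1 amino acid, except the fused glutamyl and prolyl enzyme Eprs. A cell needs a set for the cytosol and a set for the mitochondrion, where a few proteins of the respiratory chain are made. The mitochondrial enzymes are encoded in the nucleus and imported. Gars and Kars, and in part other members, encode both a cytosolic and a mitochondrial form from 1 gene, so they stand with the cytosolic enzymes only by name. In erythroid cells, which make globin in bulk, amino acid supply and haem are sensed by kinases that phosphorylate eIF2α. The transcription factor ATF4 then raises a set of amino acid genes that includes many cytosolic synthetases.

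The signals are spot intensities scaled so that the 75th percentile of the probes detected on all 4 arrays was equal. On the fetal liver arrays 46.4% (Ezh2-null) and 39.0% (wild type) of probes were well above background. On both bone marrow arrays it was 41.8%. The lowest scaled signal of such a probe, the floor of an array, lay between 9.79 (Ezh2-null bone marrow) and 19.3 (wild-type fetal liver). Probes printed 10 times varied within an array by a median log2 SD of 0.0797 (wild-type bone marrow) to 0.143 (wild-type fetal liver). This covers spot error only. Over probes detected on all 4 arrays, log2 signals correlated at 0.937 between the fetal liver arrays and 0.982 between the bone marrow arrays. The part of these array differences in the fetal liver calls was not tested. The probe of Ezh2, 2558 bases into its transcript, read 194 on the Ezh2-null and 33.5 on the wild-type array of fetal liver, and 70.02 on the Ezh2-null and 35.4 on the wild-type array of bone marrow. It was brighter on both arrays labelled null. It may lie outside the deleted part, so every genotype direction here rests on the labels alone.

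The progenitor markers were present. Of 12 erythroid and megakaryocyte markers, 10 or 11 were well above background on each array, the erythroid factors Gata1, Klf1 and Tal1 among them. Some of them differed between groups: in fetal liver Kit, the stem cell factor receptor, was 3.77-fold higher and Epor, the erythropoietin receptor, 2.34-fold lower on the Ezh2-null array. These were 1 higher and 1 lower of 11 measured (all genes: 15.4% and 13.5%). In bone marrow Klf1 (3.17-fold), Pf4 (3.18-fold) and Slc4a1 (2.85-fold) were higher on the Ezh2-null array. These were 3 of 11 measured, and 0 were at least 2-fold lower (all genes: 4.54% and 7.74%). Of these 11, 5 lay below 0, the lowest being Kit at −0.51 log2. Car1, a carbonic anhydrase, was 42.3-fold higher in bone marrow than in fetal liver in Ezh2-null cells and 96.1-fold higher in wild-type cells. Slc4a1 went the other way, 2.23-fold lower in Ezh2-null and 11.7-fold lower in wild-type bone marrow. Of 10 markers measured in wild-type cells, 3 were at least 2-fold higher in bone marrow and 3 lower (all genes: 13.1% and 31.9%). Of 12 measured in Ezh2-null cells, 2 were higher and 2 lower (all genes: 10.5% and 27.1%). Of 8 lymphoid markers, 7 were above background on the Ezh2-null bone marrow array, with a summed signal of 3888, against 4 and 209.8 on the wild-type one; the sum was 201 in Ezh2-null and 362 in wild-type fetal liver. Of 7 hepatocyte markers, 2 were above background in Ezh2-null fetal liver (summed signal 121) and 3 in wild-type fetal liver (623), against 2 in Ezh2-null (62.7) and 1 in wild-type bone marrow (59.5). Alb, Afp and Ttr were below background on every array. Of 9 granulocyte and macrophage markers 3 to 5 were above background, with sums of 474 to 602. These sums add different probes, include signals below background and do not measure amounts of a cell type. Vpreb1 (2202) and Dntt (1381) make up most of the lymphoid sum in Ezh2-null bone marrow. Apoa2 (419) makes up most of the hepatocyte sum in wild-type fetal liver. Csf1r (428 to 494) makes up most of each granulocyte and macrophage sum. The part of such cell types in the differences below was not tested. In bulk RNA fewer cells of a type and less RNA per cell cannot be told apart.

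Of the 27 members with a promoter in the RefSeq table (build GRCm38.p6, 250 bases before to 50 after the start site), 5 held TGATGNAA on either strand, the core of the element through which ATF4 dimers act on amino acid genes. All 5 were among the 13 cytosolic members with a promoter (Aars, Gars, Iars, Tars and Yars), 38.5% of them, and 0 of 14 mitochondrial members held it. The share over the 32851 promoters listed there was 3.97%. Cars, Lars, Nars and Wars, which were also called in fetal liver, had no promoter listed and were not searched. Dars, also called there, was searched and held no match, while Yars held a match and was 0.05 log2 apart in fetal liver. The 3 members with a match before the start site are shown, with the match in capitals, whether or not they were called. Of these, Tars and Aars were called in fetal liver and Gars stood just under 2-fold. Each match shown lies on the strand opposite to the gene, so it reads as the reverse complement.
Tars, chr15:11399659-11399703, minus strand: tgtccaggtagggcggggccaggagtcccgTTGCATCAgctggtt
Aars, chr8:111033700-111033767, plus strand: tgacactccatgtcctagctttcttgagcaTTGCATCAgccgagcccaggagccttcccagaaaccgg
Gars, chr6:55037941-55038000, plus strand: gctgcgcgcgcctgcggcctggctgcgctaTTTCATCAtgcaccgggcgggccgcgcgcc
The matches begin 15, 112 and 30 bases before the start site of Tars, Aars and Gars. Tars and Aars share the same 8 letters. Iars and Yars, and Aars a second time, held a match within the bases after the start site. The E-box CACGTG, bound by MYC and its partners, stood in 4 of 13 cytosolic promoters (Aars, Farsb, Iars, Tars) and 1 of 14 mitochondrial ones (Ears2), against 7.15% of all promoters. The palindromic site of NRF1, a regulator of respiratory genes, stood in 3 cytosolic (Farsb, Kars, Tars) and 2 mitochondrial (Iars2, Mars2) promoters, against 4.60%. The TATA box TATAAA stood in 1 cytosolic and 2 mitochondrial members, against 13.6%. Both strands were searched, none of these 4 motifs contains another, and a match is a description of the sequence, not of binding.

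Probes that cross an exon junction match over their full length only in spliced transcript. Those of 4 members described further on are shown as they lie on the array, with the span covered on build mm9, since Dars, Rars and Iars2 were called from them and the Farsa one departs from the gene's other probe.
Dars, chr1:130310284-130311944, minus strand: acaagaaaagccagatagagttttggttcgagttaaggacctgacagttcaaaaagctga
Rars, chr11:35633429-35634605, minus strand: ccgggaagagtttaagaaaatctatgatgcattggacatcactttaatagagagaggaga
Iars2, chr1:187111041-187111948, minus strand: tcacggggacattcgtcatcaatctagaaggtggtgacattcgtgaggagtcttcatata
Farsa, chr8:87391534-87391694, plus strand: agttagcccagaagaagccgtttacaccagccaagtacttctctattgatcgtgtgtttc
The Dars probe starts 309 bases into its transcript and the Iars2 probe 2980 bases into it. For Dars and Rars these are the sole probes. The Farsa probe is the second of that gene. Among the 45 probes only that of Kars shared a run of 20 bases with a probe of another name on the array (LOC631033).

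In fetal liver, synthetases called higher on the array labelled Ezh2-null were mostly cytosolic. Of any size, 16 of 20 cytosolic and 7 of 15 mitochondrial members had the higher signal there, as did 6322 of 16257 genes. Of 20 measured cytosolic members, 8 were higher by 2-fold or more and 0 lower: Tars, Dars, Lars, Iars, Wars, Nars, Cars and Aars. Of 15 mitochondrial members measured, 1 was higher (Aars2) and 2 were lower (Lars2 and Sars2). Among all 16257 genes compared, 15.4% were higher by that much and 13.5% lower (28.9% in either direction), so the 40.0% of cytosolic members that were higher stood above that share and the 6.67% of mitochondrial members below it. The median difference was 0.62 log2 over cytosolic members, −0.14 over mitochondrial members and −0.14 over all genes. No test between 2 single arrays is possible, and genes are not replicates of a condition. On the same arrays all 3 hepatocyte markers measured were at least 2-fold lower in Ezh2-null fetal liver, and their part in these differences was not tested.

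**Figure D1:**
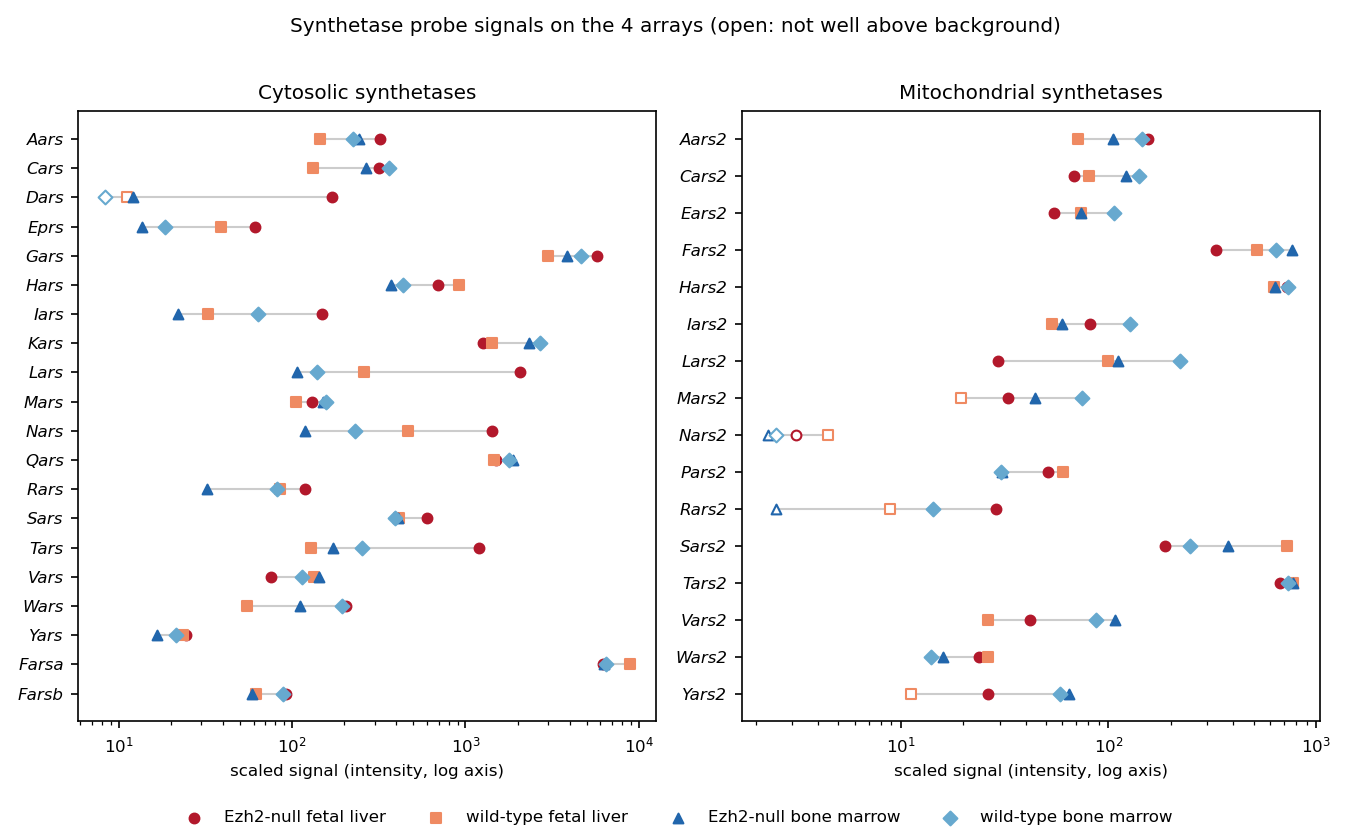
Scaled signal of the probe standing for each synthetase (log axis) on the Ezh2-null and wild-type arrays of fetal liver and of bone marrow, with cytosolic members on the left and mitochondrial members on the right. Open symbols were not well above background. Tars, Lars, Dars, Iars and Nars have their Ezh2-null fetal liver point far to the right, and Lars2 and Sars2 have it furthest left. Signals of different probes cannot be set against each other.

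Tars, the threonyl enzyme, read 1192 on the Ezh2-null and 128 on the wild-type fetal liver array, and 173 on the Ezh2-null and 252 on the wild-type bone marrow array. Its probe (chr15:11313527-11313586, mm9) was thus 9.32-fold higher in Ezh2-null fetal liver, with the other 3 arrays between 128 and 252. Lars, the leucyl enzyme, which also reports leucine to the growth kinase mTORC1, read 2077 in Ezh2-null and 259 in wild-type fetal liver, and 106 in Ezh2-null and 140.2 in wild-type bone marrow. That is 8.03-fold higher in fetal liver, and again 1 array stood apart from 3. Dars, the aspartyl enzyme, read 171 on the Ezh2-null fetal liver array and 12.2 on the Ezh2-null bone marrow array. On the wild-type arrays of both sources (11.1 in fetal liver, 8.29 in bone marrow) it was not well above background, so the fetal liver difference is at least 8.86-fold, measured against the floor of the wild-type array.

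Iars, the isoleucyl enzyme, read 148 in Ezh2-null and 32.8 in wild-type fetal liver, and 21.9 in Ezh2-null and 63.3 in wild-type bone marrow. It was 4.51-fold higher in fetal liver and 2.89-fold lower in bone marrow on the Ezh2-null array, the one member at least 2-fold apart in opposite directions. Nars, the asparaginyl enzyme, read 1419 in Ezh2-null and 467 in wild-type fetal liver, and 118 in Ezh2-null and 231 in wild-type bone marrow. Its fetal liver signals lay above both bone marrow signals, and it was 3.04-fold higher in Ezh2-null fetal liver. Cars, the cysteinyl enzyme, read 318 in Ezh2-null and 131 in wild-type fetal liver, and 267 in Ezh2-null and 360.0 in wild-type bone marrow. Aars, the alanyl enzyme, read 320.2 in Ezh2-null and 144 in wild-type fetal liver, and 242 in Ezh2-null and 225 in wild-type bone marrow. For Cars (2.42-fold) and Aars (2.22-fold) it was the wild-type fetal liver array that stood lowest of the 4.

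Wars, the tryptophanyl enzyme, which interferon also induces, depended on the probe. By its brighter probe, 2766 bases into the transcript, it read 204 in Ezh2-null and 54.7 in wild-type fetal liver (3.73-fold higher), and 111 in Ezh2-null bone marrow and 195 in wild-type bone marrow. By the second probe, which starts at base 1036, it read 81.7 in Ezh2-null and 119 in wild-type fetal liver, and 101 in Ezh2-null and 85.1 in wild-type bone marrow. The probes thus went opposite ways in fetal liver (1.90 and −0.54 log2), and with both probes averaged Wars was under 2-fold.

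The other 12 cytosolic members were between −0.82 log2 (the valyl enzyme Vars) and 0.94 log2 (the glycyl enzyme Gars) in fetal liver. Gars, mutated in inherited neuropathy, read 5762 in Ezh2-null and 3001 in wild-type fetal liver, 1.92-fold apart. The glutaminyl enzyme Qars (1508 in Ezh2-null, 1453 in wild type) and the tyrosyl enzyme Yars (24.4 in Ezh2-null, 23.6 in wild type) were both 0.05 log2 apart. The phenylalanyl enzyme is built from 2 subunits, and these did not go the same way: Farsa was −0.50 log2 and Farsb 0.58 log2 apart. The exon-junction probe of Farsa read 237 in Ezh2-null and 745 in wild-type fetal liver, 3.14-fold lower, and 595 in Ezh2-null and 223 in wild-type bone marrow, 2.67-fold higher. The brighter Farsa probe moved by under 1.5-fold in each (1.42-fold in fetal liver and 1.03-fold in bone marrow).

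Among mitochondrial members, Sars2, the seryl enzyme, read 187 in Ezh2-null and 724 in wild-type fetal liver, and 375 in Ezh2-null and 249 in wild-type bone marrow. It was 3.86-fold lower in Ezh2-null fetal liver, where the wild-type array was the highest of the 4. Lars2, the leucyl enzyme, read 29.4 in Ezh2-null and 99.6 in wild-type fetal liver, and 111 in Ezh2-null and 221 in wild-type bone marrow. It was lower on the Ezh2-null array of both sources, by 3.38-fold in fetal liver and by 1.99-fold in bone marrow, just under the threshold. Aars2, the alanyl enzyme, read 155 in Ezh2-null and 71.5 in wild-type fetal liver, and 105 in Ezh2-null and 145 in wild-type bone marrow. It was 2.17-fold higher in fetal liver, close to its cytosolic counterpart Aars. Leucine is the clearest case of enzymes for 1 amino acid going apart: Lars was 3.01 log2 higher and Lars2 1.76 log2 lower in Ezh2-null fetal liver, a difference within the same arrays.

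The remaining 12 mitochondrial members measured lay between −0.66 log2 (the phenylalanyl Fars2) and a bound of 0.75 log2 (the methionyl Mars2). Mars2, the arginyl Rars2 and the tyrosyl Yars2 were above background on the Ezh2-null fetal liver array and not on the wild-type one, with bounds of 1.68-fold, 1.48-fold and 1.36-fold. Nars2, the asparaginyl enzyme, was not well above background on any array and was left out. Second probes disagreed for Pars2, the prolyl enzyme, which was at least 4.50-fold lower by the probe at base 3015 and 1.19-fold lower by the brighter one. For Iars2, the isoleucyl enzyme, the probe at base 1694 was at least 5.77-fold higher in Ezh2-null fetal liver and the brighter one 1.52-fold higher. The probes of Vars2 took opposite signs by genotype in both sources. The brighter one was at 0.68 log2 in fetal liver and 0.30 log2 in bone marrow, and the one at base 4203 at −0.49 and −0.71 log2.

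Sorted by other properties, the fetal liver calls were spread. Class I enzymes, which share a Rossmann fold, had 4 of 19 measured members higher and 1 lower, and class II enzymes had 5 of 16 higher and 1 lower. These are 21.1% and 31.2% higher, against 15.4% of all genes, and 5.26% and 6.25% lower, against 13.5%. Of the 8 synthetases bound in the multi-synthetase complex of the cytosol, 3 were higher (Dars, Iars and Lars) and 0 lower, with Eprs at 0.65, Rars at 0.47, Mars at 0.31, Qars at 0.05 and Kars at −0.17 log2. The scaffold proteins of that complex were under 2-fold apart: Aimp1 at 0.96, Aimp2 at −0.78 and Eef1e1 at −0.21 log2. Members of 1 complex thus ranged from −0.78 log2 to a bound of 3.15 log2 in the same pair of arrays.

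Across genes, signal differences in fetal liver rose with the distance of the probe from the 5′ end. This is a trend between genes, with 1 probe for each, and was not followed along single transcripts. The median was −0.42 log2 in the tenth of genes with probes nearest the 5′ end and 0.37 log2 in the tenth with the highest positions, against −0.01 and −0.09 log2 in bone marrow. Bone marrow minus fetal liver medians were −0.52 and −0.96 log2 at these ends in Ezh2-null cells and −0.88 and −0.45 log2 in wild-type cells, opposite slopes. The probes of cytosolic members started at a median of 2367 bases and those of mitochondrial members at 1890 bases. With the trend on probe position removed, 7 cytosolic members were at least 2-fold higher and 1 lower, and 0 mitochondrial members were higher and 2 lower, against 17.7% and 9.98% of all genes. Aars (0.96 log2) and Aars2 (0.95 log2) were then under 2-fold. The medians were then 0.76 log2 over cytosolic members, 0.15 over mitochondrial members and 0.03 over all genes. Dars, whose probe sits near the 5′ end, ran against the trend.

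**Figure D2:**
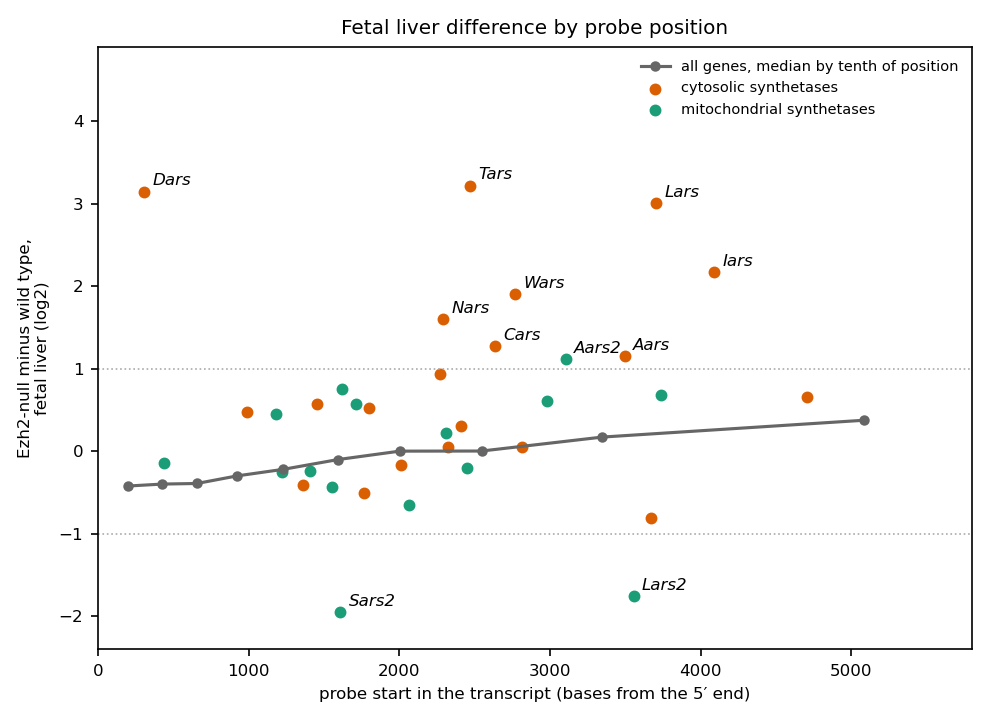
Ezh2-null minus wild-type difference in fetal liver (log2) against the start of the probe in the transcript (bases). The grey line joins the medians of all genes in 10 bins of position, −0.42 in the bin nearest the 5′ end and 0.37 in the farthest, and points are synthetases. Dars at base 309, Tars at 2467 and Lars at 3705 all lie above 3.00.

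Many genes of the ATF4 and amino acid response were also higher in Ezh2-null fetal liver. Among 24 measured, 11 were higher by 2-fold or more and 0 lower, with a median of 0.95 log2, against the 15.4% and −0.14 log2 of all genes. Nupr1, a stress-induced chromatin protein, read 672 in Ezh2-null and 39.9 in wild-type fetal liver (16.8-fold), and Ddit4, an inhibitor of mTORC1, read 4802 in Ezh2-null and 292 in wild type (16.5-fold). Trib3, a pseudokinase that restrains ATF4, read 4506 in Ezh2-null and 377 in wild type (3.58 log2). Sesn2, the leucine sensor, read 209 in Ezh2-null and 28.6 in wild type (7.32-fold). The arginine transporter Slc7a1 was 2.08 log2 higher, and the hormone gene Stc2 at least 5.62-fold higher. Atf4 itself was 1.47-fold higher and the asparagine synthetase Asns 1.93-fold higher, both under the threshold, and Ddit3 was at −0.20 log2. Of the 4 kinases of eIF2α only Eif2ak1, the haem-regulated one, was above background, at 85.8 in Ezh2-null and 108 in wild type. Factors that edit, repair or modify tRNA for charging had 2 of 14 measured members higher (Trnt1, which adds the CCA end, by at least 3.81-fold, and Mtfmt, which formylates initiator tRNA in mitochondria, by at least 2.61-fold) and 1 lower (Gatc, of the mitochondrial glutaminyl pathway, by at least 2.56-fold). These lists were chosen with earlier results of these data known, and their counts are a description.

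In bone marrow no synthetase was called higher on the Ezh2-null array by its brighter or sole probe. Of 20 cytosolic members 0 were at least 2-fold higher and 2 were lower (Iars and Rars), and of 15 mitochondrial members 0 were higher and 1 was lower (Iars2). By second probes, not counted here, the mitochondrial cysteinyl enzyme Cars2 was 2.29-fold lower and Farsa 2.67-fold higher in Ezh2-null bone marrow. Their brighter probes were at −0.20 and −0.04 log2. Of all 15279 genes compared, 4.54% were higher and 7.74% lower (12.3% in either direction), so the 8.57% of the 35 members that were lower is near the background. On these arrays 6 of 7 measured lymphoid markers were at least 2-fold higher in Ezh2-null cells, and their part was not tested. Rars, the arginyl enzyme, read 32.1 in Ezh2-null and 81.4 in wild-type bone marrow. In fetal liver it read 118 in Ezh2-null and 85.6 in wild-type cells. It was 2.53-fold lower in Ezh2-null bone marrow, the lowest array of the 4. Iars2 read 59.6 in Ezh2-null and 127 in wild-type bone marrow (2.13-fold lower), and 81.3 in Ezh2-null and 53.4 in wild-type fetal liver. Medians were −0.32 log2 over cytosolic, −0.20 over mitochondrial and −0.03 over all genes. Below 0 lay 15 of 20 cytosolic members, against 8222 of the 15279 genes. In the ATF4 and amino acid list 0 of 21 measured genes were higher and 4 lower, Sesn2 by at least 7.27-fold, Nupr1 by 2.21-fold, Slc38a2 by 2.12-fold and Psat1 by 2.08-fold. Of 12 measured tRNA editing and related factors 0 were higher and 0 lower.

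**Figure D3:**
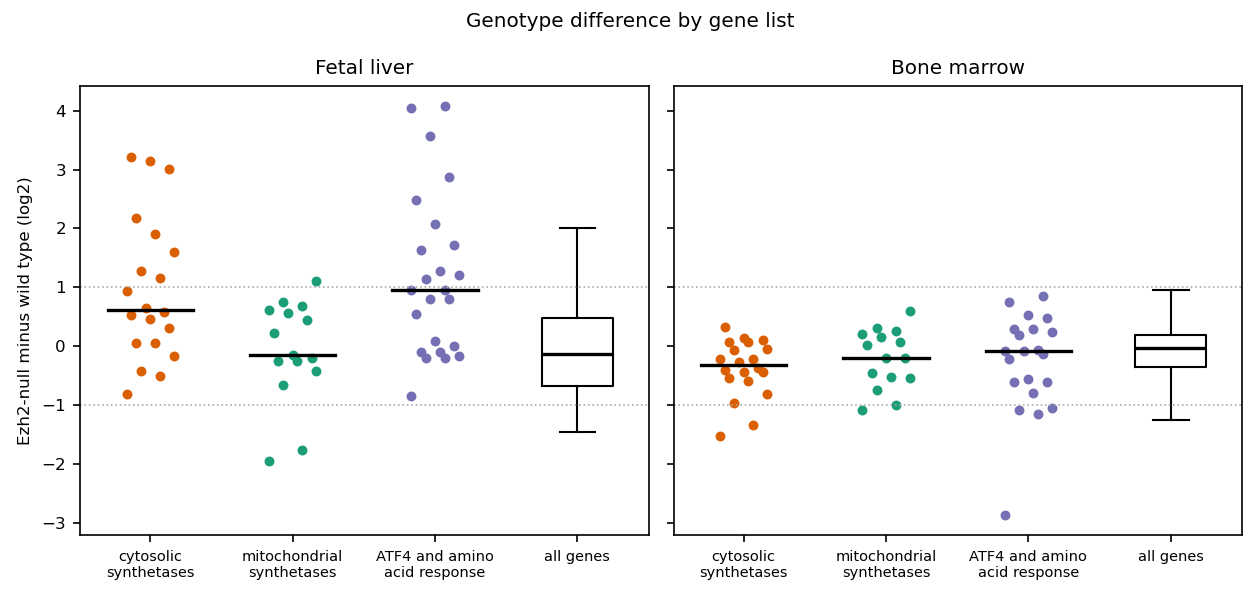
Ezh2-null minus wild-type difference (log2) in fetal liver and in bone marrow for each measured cytosolic synthetase, mitochondrial synthetase and gene of the ATF4 and amino acid list (points, with the median as a bar), beside all genes (box: quartiles and median, whiskers: 5th to 95th percentile). In fetal liver the medians are 0.62, −0.14 and 0.95, and in bone marrow −0.32, −0.20 and −0.09. Dotted lines mark 2-fold.

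The design of 2 genotypes in 2 sources lets the genotype differences be set against each other. Of the 31 members above background on all 4 arrays, 5 (16.1%) had a bone marrow difference at least 4-fold below the fetal liver one: Tars (−3.76 log2), Iars (−3.71), Lars (−3.41), Wars (−2.72, by its brighter probe) and Nars (−2.57). All 5 are cytosolic. For 1 member, Sars2, it was at least 4-fold above (2.54 log2). Among the 11177 genes above background on all 4 arrays, 6.37% were below by that much and 3.03% above. Dars, for which both genotype differences are lower bounds, gives no value here. No member was at least 2-fold apart in the same direction in both sources, as 0.959% (higher) and 0.606% (lower) of the 13868 genes measured in both sources were. An interaction leaves no residual with 4 arrays, so these differences were not tested.

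**Figure D4:**
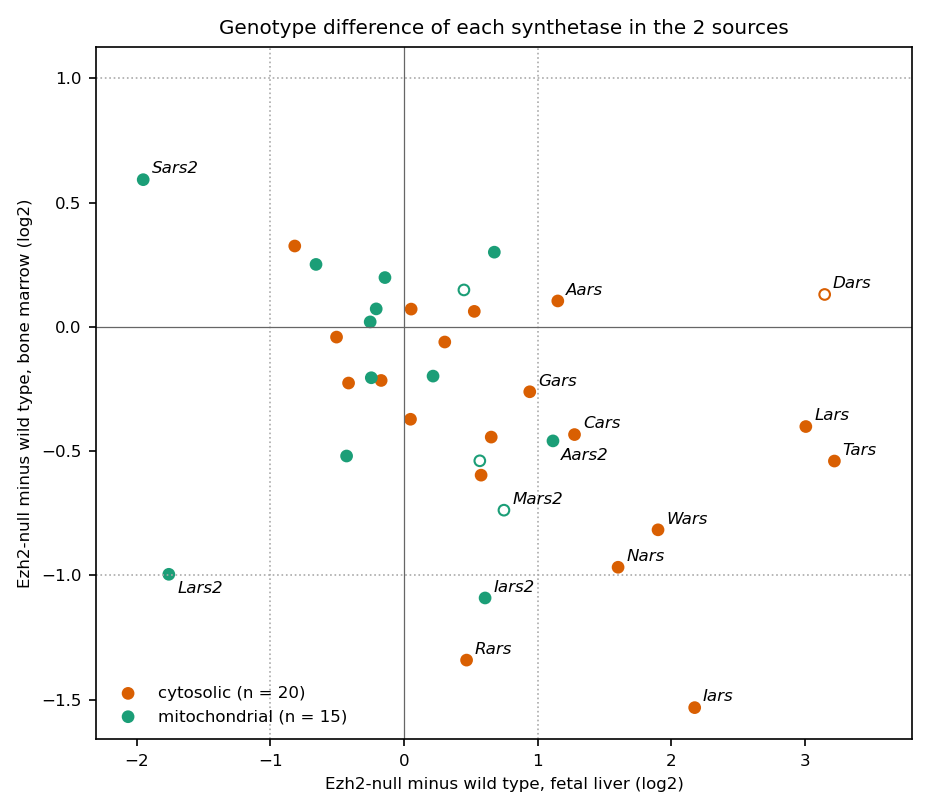
Ezh2-null minus wild-type difference (log2) of each synthetase in fetal liver (horizontal) and in bone marrow (vertical), for 20 cytosolic and 15 mitochondrial members. Open circles are bounds and dotted lines mark 2-fold. Cytosolic members spread to 3.22 on the horizontal axis, while in bone marrow all members lie between −1.53 and 0.59.

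Adult bone marrow was also set against fetal liver within each genotype. These comparisons share their arrays with the genotype comparisons, so they repeat the same values from another side. In wild-type cells, 6 of 15 mitochondrial members were at least 2-fold higher in bone marrow and 1 was lower, against 2 higher and 3 lower of 19 cytosolic members. Of all genes 13.1% were higher and 31.9% lower (45.0% in either direction), and the median of all genes was −0.58 log2. In Ezh2-null cells, 5 of 15 mitochondrial members were higher in bone marrow and 1 was lower, while 0 of 20 cytosolic members were higher and 7 were lower, against 10.5% and 27.1% of all genes (37.6% in either direction). Mitochondrial members had medians of 0.44 log2 in Ezh2-null and 0.53 log2 in wild-type cells, and cytosolic members −0.62 in Ezh2-null and 0.30 in wild-type cells.

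Vars2, the valyl enzyme, read 107 in Ezh2-null bone marrow and 41.9 in Ezh2-null fetal liver, and 86.9 in wild-type bone marrow and 26.2 in wild-type fetal liver. Both bone marrow arrays lay above both fetal liver arrays. Its second probe, at base 4203, was also higher in bone marrow in both genotypes (1.51 log2 in Ezh2-null, 1.73 log2 in wild type). Yars2 read 64.5 in Ezh2-null bone marrow and 26.3 in Ezh2-null fetal liver (2.45-fold), and 58.2 in wild-type bone marrow and 11.2, below background, in wild-type fetal liver (at least 3.01-fold). With Lars2 (3.77-fold in Ezh2-null, 2.22-fold in wild type), these 3 mitochondrial members were higher in bone marrow in both genotypes, 8.82% of 34 members measured against 5.12% of all genes. Lower in both were Eprs, the fused glutamyl and prolyl enzyme, and Nars, 5.88% of members against 10.5% of all genes. Their wild-type calls were close to the threshold. That of Eprs was lost in 7 and that of Nars in 6 of 12 other settings. Some of these settings could not change the value of a gene with 1 probe. Eprs read 13.5 in Ezh2-null bone marrow and 60.9 in Ezh2-null fetal liver, and 18.4 in wild-type bone marrow and 38.7 in wild-type fetal liver. Its bone marrow arrays were the lower pair.

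The directions between the sources depended on the scaling. With scaling to the spike-in RNA, 24 of 34 members were at least 2-fold higher in wild-type bone marrow and 0 were lower, against 36.2% and 2.56% of all genes, and the median of all genes was 0.59 log2 in place of −0.58. The share of all calls that were higher was then 93.4%, against 29.1%, and it was 54.9% for the 75th percentile taken over every probe. Between the Ezh2-null arrays it was 67.6% with the spike-in and 64.2% for every probe, against 27.9%. Eprs, Nars and Hars, lower in wild-type bone marrow by 1.07, 1.02 and 1.08 log2, were then above 0 with the spike-in. With the trend on probe position removed, 12 members were higher in wild-type bone marrow and 1 was lower, in place of 8 and 4. All genes then had 19.7% higher and 14.3% lower, in place of 13.1% and 31.9%. In fetal liver by genotype, scaling to the spike-in gave 17 of 35 members higher and 2 lower, against 24.9% and 4.50% of all genes. There 84.7% of all calls were higher, against 53.3%, and 41.4% for every probe, and the median of all genes was 0.29 log2. The gap between the cytosolic and mitochondrial medians does not depend on a shift common to all genes, and in fetal liver it was 0.76 log2 under either scaling.

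A model that adds a source term and a genotype term leaves 1 residual degree of freedom, and no richer model leaves any. Signals under 19.3, the highest floor, were raised to it. By limma with Benjamini-Hochberg adjustment, 0 of 35 members and 0 of 16250 genes passed an adjusted p of 0.05 for genotype, and 278 genes (1.71%) had an unadjusted p under 0.05. Lars2 was the 1 member among them, at −1.38 log2 (SE 0.44, adjusted p = 0.995 by limma), lower on both Ezh2-null arrays. For source 0 members and 0 genes passed, while 6 members and 2649 genes (16.3%) had an unadjusted p under 0.05. The 6 were Vars2, Yars2 and Lars2, higher in bone marrow, and Nars, Eprs and Lars, lower. That 1 residual degree of freedom holds the disagreement between the sources.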

How the data were processed

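Per the file headers, the authors' deposited intensity values were made with Feature Extraction 10.7.3.1 from 1-colour Agilent arrays. Background and spatial trend had been removed array by array and low values set to a surrogate, with no step between arrays. Per the labels' protocols, 250 ng of total RNA was amplified and labelled with Cy3. The deposited flags of 0 or 1 mark spots above background, saturated or outlying. The arrays lay on 1 slide.

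Control and outlier spots (95 to 135 an array) were dropped and spots of 1 probe averaged. Log2 signals were scaled to the 75th percentile of 12880 probes, those detected well above background 4 times of 4, since under 50% were detected on each array. The probe with the highest mean stood for a gene. A gene below background on 1 array of a pair was entered as a bound against the higher of that array's floor and its own signal. For limma 3.58.1 (R 4.3.3), signals were raised to 19.3, the highest floor, so low values in that fit are imputed. Tested on simulated data with 16250 genes, the fit recovered 0% of changes of 2 log2 and 66% of changes of 4 log2.

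Names were updated through RefSeq (GRCm38.p6). Members, context lists and markers were chosen with earlier results of these data known. All members could be named; values per array were given for those 2-fold apart by genotype or between the sources in both genotypes, and up to 6 genes of a context list were named by size. A few others were named for their role. Promoters of Cars, Hars, Lars, Nars, Rars, Vars, Wars, Hars2 and Pars2 were not used here.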

Additional observations from a re-analysis of the deposited data

Results flagged for a closer look

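Members whose genotype difference had opposite signs in the sources and differed by at least 4-fold were singled out. The difference between sources, bone marrow minus fetal liver, was −3.71 log2 for Iars, −3.41 for Lars, −2.57 for Nars, −3.76 for Tars, −2.72 for Wars and 2.54 for Sars2. Each repeats a value given above, rests on 4 single arrays and was not tested. The share of all genes that met both conditions was not counted. By the 4-fold condition alone, 6.37% of 11177 genes were below and 3.03% above. For Wars the second probe gave −0.54 log2 in fetal liver and 0.25 log2 in bone marrow, the opposite pattern.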

How the results depend on the processing

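Each result was recomputed under 12 alternatives where they apply, and under removal of the trend on probe position, chosen after seeing the data. The 11 members called in fetal liver by genotype became 19 with spike-in scaling, where 29.4% of all genes were called against 28.9%. There the cytosolic counts, 8 higher and 0 lower, became 7 and 1 with all probes averaged and 9 and 1 with quantile normalization. The mitochondrial counts, 1 higher and 2 lower, became 2 and 3 with all probes averaged. Of all genes 13.6% were then higher and 12.8% lower with averaged probes, and 15.7% and 14.2% with quantile normalization. With normexp (offset 50) and quantile normalization the 3 calls in bone marrow became 0. The 13 between the Ezh2-null arrays became 7 and the 12 between the wild-type arrays 5. The share of all genes called fell likewise, from 12.3% to 1.53%, from 37.6% to 13.8% and from 45.0% to 13.6%. Between the wild-type arrays the 12 became 24 with spike-in scaling, where 38.8% of all genes were called. In fetal liver by genotype, Tars, Lars, Dars, Iars, Nars and Sars2 stayed at least 2-fold apart in every alternative that gave a value. Tars lay between 2.75 and 3.74 log2 and Lars between 2.73 and 3.52. Some alternatives could not change these calls. Each of these genes has 1 probe, so averaging probes or taking the most 3′ probe left its value as it was. The background filters do the same for a member above background on all arrays. The series values match the scanner values to within 0.5%. These limits also hold for the counts of alternatives that follow. The other called members fell under 2-fold in 1 (Cars, Lars2, Wars), 3 (Aars) or 4 (Aars2) alternatives. Iars2 in bone marrow fell under in 4, and between the wild-type arrays Eprs was lost in 7, Nars in 6 and Hars in 4. The call of Sars2 between the Ezh2-null arrays, which was just past 2-fold, was lost in 3.

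The cytosolic minus mitochondrial median was 0.76 log2 in fetal liver by genotype and 0.48 with normexp. In bone marrow it was −0.12, and −0.28 with detection on all arrays, 0.086 with all probes averaged and 0.12 with the most 3′ probe. Between the Ezh2-null arrays it was −1.05, and −1.47 with quantile normalization, −0.87 with normexp, −0.89 with detection on all arrays, −1.29 with the most 3′ probe and −0.87 with a pseudocount. Between the wild-type arrays it was −0.23, and 0.011 with normexp, −0.50 with no background filter, −0.60 with all probes averaged and −0.55 with the most 3′ probe. With spike-in scaling Eprs (0.13), Hars (0.12) and Nars (0.19 log2) reversed between the wild-type arrays. The cause of these changes was not tested.

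In the additive fit 0 members passed for genotype in any alternative. For source, 4 passed with the percentile over all probes and 2 with no background filter, and 0 otherwise; over all genes these settings called 959 and 1398. Genes called for genotype numbered 8 with the percentile over all probes, 140 with no background filter, 1 with detection on all arrays and 0 otherwise. For source they numbered 274 with detection on all arrays, 236 with the median of detected probes, 197 with quantile normalization and 97 with an intensity-dependent prior. Leaving out an array leaves that fit no residual. No paired analysis was possible because each group holds 1 array and the labels give no replicate numbers. Signal over background limits Dars, Mars2, Rars2 and Yars2 to bounds.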
